A study of Mus musculus with 2 samples.

Results

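Among the cells of whole mouse pancreatic tumors, 190 of 9773 carried immunoglobulin or B-lineage transcripts together with several genes of ribosome production and growth. They are called biogenesis-high B-lineage cells here. A cell belonged to them when its scaled value lay more than 1 above the zero level of the gene in at least 1 of Ighm, Cr2, Vpreb3 and Iglc1 and in at least 3 of Ncl, Nme1, Hspe1, Dkc1, Ppan and Il4i1. It also had none of Cd3d, Cd3e and Cd3g above 1, and fewer than 2 of the keratins Krt8, Krt18 and Krt19. The zero level is the lowest value of a gene in the fl/fl library, and all values below are heights above it. The cells were thus chosen by the measured values of these 16 genes, whose levels are given as a description. B-lineage cells with none of the 6 growth genes above 1 (230 fl/fl and 376 cKO cells) served for comparison and are called biogenesis-low. Cells with 1 or 2 formed a middle group of 286 and 723 cells.

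The 2 single-cell libraries came from orthotopic tumors of MT4, an organoid line of the KPC mouse model of pancreatic adenocarcinoma, taken 14 days after implantation in C57/BL6 mice. Each library pooled 3 mice and all live cells by DAPI. One genotype was Ahr fl/fl, with floxed alleles of the aryl hydrocarbon receptor gene and no Cre named. The other, Ahr cKO, carried the same floxed alleles with LysM-Cre, which acts mainly in macrophages, monocytes and neutrophils. Mouse ages and the deleted exons are not given in the sources used here. With 1 library per genotype no difference has a replicate check and no test was possible.

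Lymphocytes that leave the resting state enlarge before they divide. The nucleolus then makes more ribosomes, chaperones fold the new proteins, and enzymes of purine, pyrimidine, one-carbon and polyamine metabolism supply building blocks. Many of these genes are known targets of the transcription factor Myc, which binds the E-box CACGTG. In B cells, signals through the antigen receptor, CD40 and cytokines such as interleukin 4 start this program, and Il4i1 is an interleukin 4 induced gene. Plasma cells, by contrast, expand the secretory pathway under Xbp1.

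Promoters of the 6 growth genes were read from RefSeq windows of GRCm38.p6 that run from 250 bases before to 50 bases after a start site. CACGTG, which reads the same on both strands, was found in windows of Nme1 and in none of the windows of Ncl, Hspe1, Dkc1, Ppan and Il4i1. Of all windows of this length 7.15% held it (2349 of 32851). The 250 bases before the first listed start of Nme1 (chr11:93968273-93968522, minus strand) and before the start of Ncl (chr1:86359456-86359705, minus strand) are shown because Nme1 was the growth gene with a match and Ncl the one most often above 1. Capitals mark the match, whose first base lies 18 bases before the start site.
Nme1: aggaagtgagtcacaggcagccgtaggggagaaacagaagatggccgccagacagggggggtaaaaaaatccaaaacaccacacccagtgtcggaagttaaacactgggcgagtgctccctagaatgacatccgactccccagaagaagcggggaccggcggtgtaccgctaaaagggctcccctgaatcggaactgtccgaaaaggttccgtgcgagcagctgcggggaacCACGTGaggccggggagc
Ncl: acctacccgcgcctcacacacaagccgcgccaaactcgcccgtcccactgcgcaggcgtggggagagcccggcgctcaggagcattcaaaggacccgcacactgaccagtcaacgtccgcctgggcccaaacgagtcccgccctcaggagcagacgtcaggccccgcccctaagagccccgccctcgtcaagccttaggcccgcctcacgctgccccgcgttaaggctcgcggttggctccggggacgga
Among other lists, windows of 2 of 15 nucleolar genes (Wdr43 and Mybbp1a), 3 of 12 chaperone genes (Hspd1, Hsph1 and Timm8a1) and 5 of 19 nucleotide genes held CACGTG, as did 2 of 5 translation genes, 3 of 8 transporter and glycolysis genes, 3 of 10 plasma cell genes and 3 of 13 stress genes, against 9.39% of all matched genes of the table (139 of 1481). Windows of 4 of 40 cell cycle genes and 1 of 9 marginal zone and B-1 genes held it. It was found in 0 of 16 B cell activation genes, 0 of 19 interferon response genes and 0 of 3 MHC class II genes. The B-lineage identity, germinal center, lymphocyte traffic and Ahr axis lists, with 2 or 3 genes each, had no match either. A match shows only that these letters are present.

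The biogenesis-high cells made up 0.962% of the fl/fl library (50 of 5196 cells, exact 95% interval 0.715% to 1.27%) and 3.06% of the cKO library (140 of 4577 cells, 2.58% to 3.60%). The cKO library also held more B-lineage cells of any level, 1239 against 566. Among these, biogenesis-high cells were 8.83% (6.63% to 11.48%) in fl/fl and 11.3% (9.59% to 13.2%) in cKO, and these intervals overlapped. Intervals cover counting error only. Of the barcodes, 656 occurred in both libraries, but none among the biogenesis-high cells. A live-cell sort of whole tumors also carries how much tumor and neighboring tissue went into each pool.

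The values of the cKO library had been moved relative to the fl/fl zero level, which bears on all comparisons between the libraries. For a median gene, 96.0% of fl/fl cells lay at zero and none below, while 55.7% of cKO cells lay at zero and 15.3% below it. No source used here states the step that did this. A height above 1 therefore does not mean the same in both libraries. Values are in standard deviations of each gene over cells and cannot be compared between genes, and differences in them are not fold changes.

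Ncl, the nucleolar protein nucleolin, was above 1 in 42 of 50 fl/fl and 117 of 140 cKO biogenesis-high cells, with means of 2.13 (SD 1.96) and 1.77 (SD 1.18). The gene lies at chr1:86344719-86359455 in GRCm38.p6. Hspe1, the small co-chaperone of the mitochondrial chaperonin, was above 1 in 37 and 114 cells, with means of 1.71 (SD 1.13) and 1.86 (SD 1.08). Nme1, a nucleoside diphosphate kinase, was above 1 in 36 and 103 cells, with means of 1.72 (SD 1.28) and 1.74 (SD 1.33), and lies at chr11:93958925-93968272. Ncl, Hspe1 and Nme1 were thus the growth genes most often above 1. The combination of exactly these genes was the most frequent, in 10 fl/fl and 29 cKO cells.

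The other 3 growth genes were each above 1 in a minority of the cells. Dkc1, the pseudouridine synthase dyskerin, was above 1 in 20 of 50 and 52 of 140 cells. Ppan, a factor of large ribosomal subunit assembly, was above 1 in 16 and 45 cells. Il4i1, a secreted amino acid oxidase, was above 1 in 20 and 62 cells. Il4i1 was above 1 in 1 of 536 fl/fl keratin cells and 1 of 903 fl/fl Cd3 cells, and in 70 of all 4630 fl/fl cells outside the B-lineage rule (1.51%). Ncl, by comparison, was above 1 in 26.3% of those keratin cells and 27.4% of those Cd3 cells.

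Of the B-lineage genes, Vpreb3 was above 1 in 24 of 50 fl/fl biogenesis-high cells and Cr2, complement receptor 2, in 20. Iglc1, a lambda light chain constant gene, was above 1 in 20 and Ighm, the IgM heavy chain, in 13. In cKO the counts of 140 were 65 for Vpreb3, 94 for Cr2, 83 for Iglc1 and 37 for Ighm. Cr2 lies at chr1:195136811-195176880. The Iglc1 median in cKO was 1.09, close to the limit of 1, and it was 1.07 in cKO biogenesis-low cells, so membership through Iglc1 alone is weakly defined there. In fl/fl, 30 of 50 cells passed on a single B-lineage gene, and in cKO 51 of 140.

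**Figure D1:**
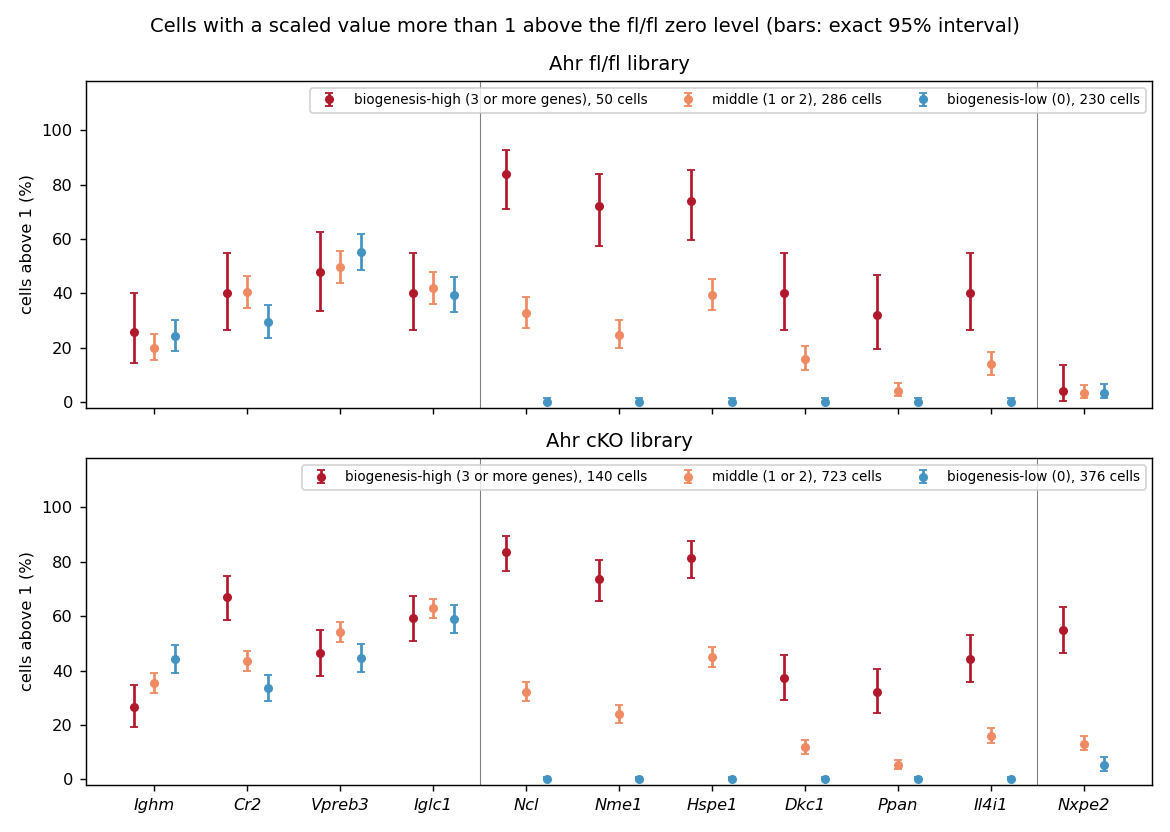
Share of cells (vertical axis, percent) with a value more than 1 above zero for the 4 B-lineage genes, the 6 growth genes and Nxpe2, in biogenesis-high, middle and biogenesis-low cells of the fl/fl (top) and cKO (bottom) library, with exact 95% intervals. The growth genes separate the groups because the rule used them, and Nxpe2 stands at 4% in fl/fl and 55% in cKO biogenesis-high cells.

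The rule placed many cells near its limits. Of the biogenesis-high cells, 33 fl/fl and 89 cKO cells had exactly 3 growth genes above 1, and 90 and 247 cells of the middle group had exactly 2. The lowest value of the third-highest growth gene was 1.00 in members of either library, and the highest among cells that missed the rule was 0.982 in fl/fl and 0.997 in cKO. Within 0.25 above the limit lay 9 fl/fl and 34 cKO members.

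At least 3 growth genes above 1 were also found outside the B lineage. In fl/fl this held for 5.78% of keratin cells (3.96% to 8.11%) and 6.76% of Cd3 cells (5.21% to 8.59%), against 8.83% of B-lineage cells (6.63% to 11.48%). Those intervals overlapped. Among all other fl/fl cells the share was 4.17% (3.501% to 4.920%). In cKO the B-lineage share of 11.3% (9.59% to 13.2%) overlapped that of keratin cells (4.55%, 1.69% to 9.63%) by a small margin. It did not overlap that of Cd3 cells (6.80%, 5.26% to 8.61%) or of all other cells (5.48%, 4.59% to 6.50%). Cells with at least 3 growth genes were thus present in every class counted.

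B-lineage identity could be checked on few genes, since 6 of 38 listed identity genes were measured. Igkc, the kappa light chain, was above zero in 94% of fl/fl biogenesis-high cells and Iglc3, a lambda chain, in 62%. H2-Aa, an MHC class II chain that B cells carry, was above zero in 94%. Igkc was above zero in 27.1% and H2-Aa in 51.3% of fl/fl keratin cells, and in 18.2% and 20.6% of Cd3 cells. Above 1, Igkc was found in 10% of biogenesis-high cells and in 0% of keratin cells, and H2-Aa in 48% and 4.29%.

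Markers of other cell types were counted in the biogenesis-high cells. The rule had already limited Cd3d, Cd3e and Cd3g of the T cell list and the keratins of the tumor epithelial list, so low counts of those 2 lists are partly its doing. Of 14 marker lists, those of neutrophils, 3 kinds of dendritic cells, tumor epithelium, fibroblasts, erythroid cells and basophils or mast cells had no biogenesis-high cell with 2 markers above 1. Of the endothelial list only Fabp4 was measured, so 2 markers could not be reached there, and it was at zero in all 50 fl/fl cells. Fibroblast and mast cell markers were also at zero in these 50 cells. NK cell and macrophage markers reached 2 above 1 in 1 fl/fl cell each, and T cell and acinar markers in 1 cKO cell each. Plasma cell markers did so in 3 fl/fl and 4 cKO cells.

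Nxpe2 (chr9:48318003-48353449), a member of the neurexophilin and PC-esterase family, had been given as a marker of these cells, and the fl/fl library did not show it. It was above zero in 2 of 50 fl/fl biogenesis-high cells (4%) and in 8 of 230 biogenesis-low cells (3.48%). In cKO it was above 1 in 77 of 140 biogenesis-high cells (55%) against 20 of 376 biogenesis-low cells (5.32%). Its cKO mean was 1.27 (SD 1.14) and the fl/fl mean 0.41 (SD 2.01), a difference of 0.87. With the local baseline of the cKO values removed, taken as the 0.3 quantile among the 30 cKO cells closest in expression, the difference was 0.01. Removing it also takes away any rise shared by most of those cells. The 0.01 therefore does not show whether Nxpe2 itself differed. In cKO the values were graded over the cells, with a 10th percentile of 0.17 and a 90th of 2.12, whereas fl/fl cells were either at zero or high.

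Cells with more genes detected can pass a rule on several genes more easily, so detection is given first. The depth in molecules is unknown. Leaving out the rule genes, a biogenesis-high fl/fl cell had a median of 100.5 genes above zero (range 28 to 347), against 70 in the middle group and 70 in biogenesis-low cells (range 15 to 364). Biogenesis-high and biogenesis-low cells overlapped, and no such count can be made in cKO because its zero level was moved.

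Genes outside the rule were then compared between biogenesis-high and biogenesis-low cells of the same library. Means that differed by 0.25 or more made a gene higher or lower. In fl/fl, 102 of 1984 genes (5.14%) were higher and 19 (0.958%) lower, and in cKO 122 (6.15%) were higher and 27 (1.36%) lower. In both libraries 58 genes (2.92%) were higher and 6 (0.302%) lower. The median over all genes was 0 in fl/fl. Weighting cells equally over 4 bins of genes above zero left 98 genes higher in fl/fl and moved the lower ones to 39, with 11 to 14 biogenesis-high cells per bin.

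Genes of the nucleolus and ribosome assembly were the list with the most higher members. Of 17 measured genes, 12 were higher in fl/fl, 14 in cKO and 10 in both, and none was lower. The median difference was 0.35 in fl/fl and 0.38 in cKO, and 0.33 in fl/fl after weighting over bins of genes above zero. The rule itself chose 3 genes of the same machinery (Ncl, Dkc1 and Ppan) in the same cells, so these counts describe how the measured genes go together and are no independent support.

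Npm1, the nucleolar chaperone nucleophosmin, averaged 1.26 (SD 1.04) in the 50 fl/fl biogenesis-high cells and 0.67 (SD 0.72) in the 230 biogenesis-low cells. In cKO its means were 1.37 (SD 1.04) and 0.68 (SD 0.73). These scaled values were alike, though a height does not mean the same in both libraries. Nhp2, a protein of the same small nucleolar particles as dyskerin, averaged 0.95 (SD 1.25) against 0.29 (SD 0.86) in fl/fl and 0.98 (SD 1.39) against 0.26 (SD 0.66) in cKO. The cells overlapped widely for each gene: Nhp2 was above zero in 48% of fl/fl biogenesis-high and 17.0% of biogenesis-low cells. Pa2g4, a growth-regulated protein of ribosome assembly, was higher by 0.75 in fl/fl and 0.47 in cKO, and Nop56, a core protein of box C/D particles, by 0.60 in fl/fl and 0.23 in cKO.

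Chaperones and mitochondrial import followed, with 10 of 15 genes higher in fl/fl, 8 in cKO and 7 in both. The medians were 0.28 and 0.34. The rule itself chose Hspe1 of this machinery in the same cells, so these counts are no independent support either. Hsp90ab1, the constitutive cytosolic HSP90, had a fl/fl mean of 1.71 (SD 1.23) against 0.88 (SD 0.74). In cKO its means were 2.14 (SD 1.31) and 0.87 (SD 0.85). Hspd1, the mitochondrial chaperonin that works with Hspe1, was higher by 0.66 in fl/fl and 0.65 in cKO, and Cct3, a subunit of the cytosolic chaperonin, by 0.59 and 0.63. Tomm40, the pore of the outer mitochondrial membrane, differed by 0.58 in fl/fl and only 0.04 in cKO.

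Nucleotide, one-carbon and polyamine synthesis had 9 of 21 genes higher in fl/fl, 13 in cKO and 6 in both, with medians of 0.24 and 0.33. The rule chose Nme1, a nucleotide enzyme, in the same cells, so the same limit holds here. Impdh2, the enzyme that commits purine synthesis to guanine nucleotides, was higher by 0.52 in fl/fl and 0.41 in cKO. Mthfd1, a folate enzyme, was higher by 0.52 and 0.68, and was above zero in 14% of fl/fl biogenesis-high against 1.74% of biogenesis-low cells. Odc1, the first enzyme of polyamine synthesis, was higher by 0.46 and 0.33. Of 6 measured translation factors and tRNA ligases 4 were higher in fl/fl and 3 in cKO, led by Eif5a (0.58 and 0.74), the translation factor that carries hypusine, a residue made from polyamines. None of 8 transporter and glycolysis genes was higher in either library. Outside the lists, Set, a histone chaperone, was higher by 0.57 in fl/fl and 0.82 in cKO. Serbp1, an mRNA-binding protein, was higher by 0.52 and 0.59, and Ddx39, an RNA helicase of mRNA export, by 0.74 and 0.30.

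**Figure D2:**
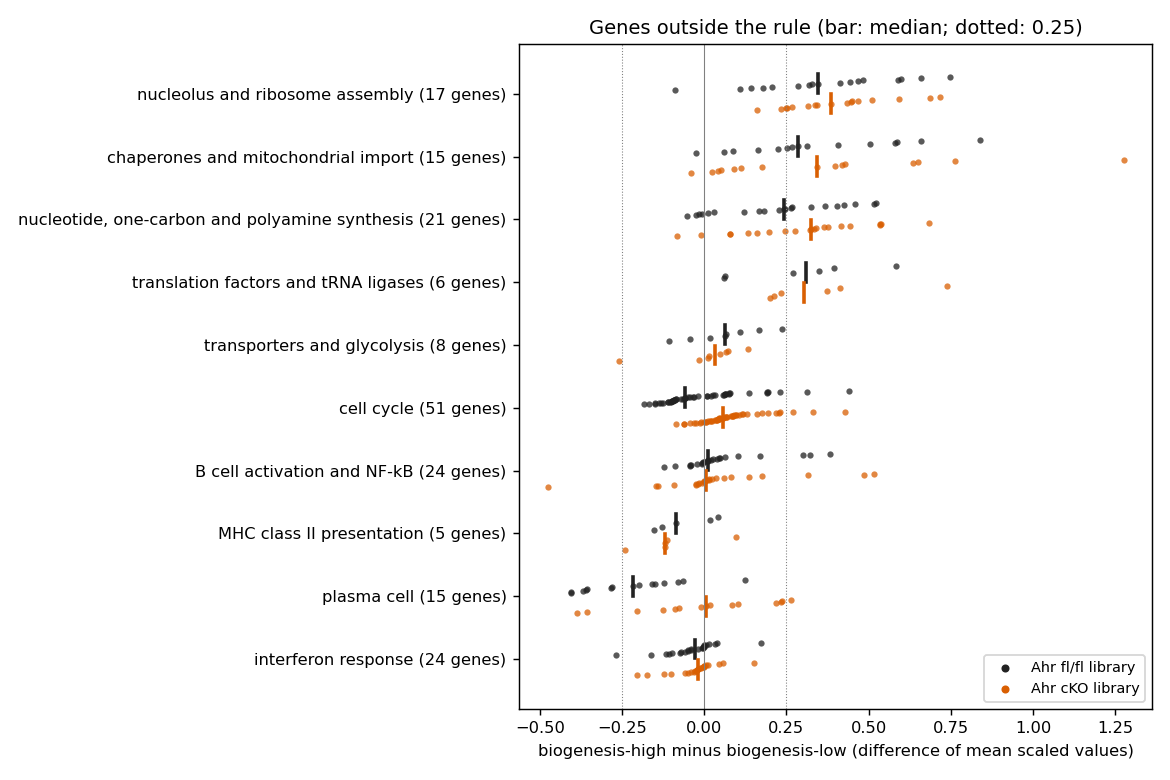
Difference of mean scaled value between biogenesis-high and biogenesis-low cells (horizontal axis) for each gene outside the rule, by list, in fl/fl (black) and cKO (orange), with the median as a bar. The nucleolar list has medians of 0.35 and 0.38, the cell cycle list lies near 0, and the plasma cell list has a median of -0.22 in fl/fl and 0.01 in cKO.

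Of 24 measured genes of B cell activation and NF-kB, 3 were higher in each library and 2 in both, with medians of 0.01 and 0.00. Over all genes 5.14% were higher in fl/fl, 6.15% in cKO and 2.92% in both. Cd200, a surface glycoprotein, was lower in cKO (-0.48) and differed by 0.17 in fl/fl. Cd83, a surface protein of activated B cells, was above 1 in 28% of fl/fl biogenesis-high and 13.0% of biogenesis-low cells, and in 21.4% and 9.31% in cKO. Its difference was 0.38 in fl/fl and 0.52 in cKO, and -0.08 in fl/fl when at least 2 B-lineage genes were asked for. Myc was above 1 in 5 of 50 against 7 of 230 fl/fl cells and in 11 of 140 against 7 of 376 cKO cells. Its differences were 0.32 and 0.49. Egr3, an early response gene of the antigen receptor, differed by 0.30 and 0.18, and by -0.16 in fl/fl with at least 2 B-lineage genes. Myb, a transcription factor of early lymphoid and proliferating cells, averaged 0.81 (SD 2.56) against 0.09 (SD 0.68) in fl/fl, a difference that came from 6 of 50 cells above zero.

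None of 5 MHC class II genes and none of 24 interferon response genes was higher in either library, and 1 interferon gene, Isg20, was lower in fl/fl (-0.27). Of 14 stress and immediate early genes, 3 lymphocyte traffic genes and 5 genes of the Ahr axis none was higher or lower in either library. Of 9 marginal zone and B-1 genes 1 was higher in each library, and none in both. In fl/fl that was Nid1, a basement membrane protein, which was above zero in 2 of 50 biogenesis-high cells (4%) and 0.435% of biogenesis-low cells. It differed by 0.36, by 0.12 in cKO and by -0.04 in fl/fl with at least 4 growth genes. Eaf2, 1 of 2 measured germinal center genes, was lower in fl/fl (-0.39) and at -0.06 in cKO. A name as activated cells would thus rest on the growth genes, Il4i1 and a few genes such as Cd83, Myc and Egr3.

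Of 51 measured cell cycle genes, 2 were higher in fl/fl and 3 in cKO, and none in both, against 5.14%, 6.15% and 2.92% of all genes. Ccnd2, the G1 cyclin D2, was higher by 0.44 in fl/fl and differed by 0.19 in cKO. Cells with at least 5 cell cycle genes above 1 made up 8% of fl/fl biogenesis-high cells (4 of 50, 2.22% to 19.2%) and 7.83% of biogenesis-low cells (18 of 230, 4.70% to 12.1%). In cKO they were 10% (14 of 140, 5.58% to 16.2%) and 1.60% (6 of 376, 0.588% to 3.44%), and those intervals did not overlap. The limit of 5 genes was not varied. Cell cycle means were high in cells that lay outside the 2 UMAP areas, an island and a strip, that held most B-lineage cells. In cKO the 8 biogenesis-high cells there averaged 0.90 (SD 0.51), against 0.13 (SD 0.09) in the 80 of the strip and 0.08 (SD 0.07) in the 52 of the island. In fl/fl the 55 biogenesis-low cells there averaged 0.45 (SD 0.67), against 0.06 (SD 0.05) in the 172 of the island, and the 8 biogenesis-high cells 0.42 (SD 0.49).

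Plasma cell genes were lower in fl/fl biogenesis-high cells, in 7 of 15 measured genes with a median of -0.22, but in cKO 2 were lower, 1 was higher and the median was 0.01. Mzb1, an endoplasmic reticulum chaperone of antibody-secreting and marginal zone B cells, was lower in both (-0.41 and -0.36). Xbp1, the secretory pathway factor, was lower in fl/fl (-0.41) and at -0.09 in cKO, and at -0.02 in fl/fl without cells that had markers of plasma cells or other types. The comparison cells held more plasma-type cells: at least 2 plasma cell markers were above 1 in 28 of 230 fl/fl and 28 of 376 cKO biogenesis-low cells, against 3 of 50 and 4 of 140 biogenesis-high cells. Sdc1 and Tnfrsf17, which mark plasma cells, were at zero in all 50 fl/fl biogenesis-high cells. The 7 plasma cell markers summed to between 0 and 19.7 in fl/fl biogenesis-high and 0 and 56.7 in biogenesis-low cells, and to between -0.40 and 7.83 and between -1.94 and 36.9 in cKO. Without cells that had 2 markers of plasma cells or of any other listed type, the fl/fl median of the list was 0, while that of the nucleolar list was 0.39.

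Along the number of growth genes above 1, the nucleolar mean differed little up to 2 genes. In fl/fl the mean over nucleolar genes was 0.26 in cells with none (n = 230), 0.29 with 1 (n = 196) and 0.31 with 2 (n = 90), then 0.54 with 3 (n = 33) and 0.78 with 4 to 6 (n = 17). In cKO it was 0.24, 0.28, 0.30, 0.50 and 0.88 (n = 376, 476, 247, 89 and 51). The step between 2 and 3 genes, where the rule places its limit, was thus larger than the steps below it in both libraries. Below that limit, nucleotide genes averaged 0.12, 0.14 and 0.18 with 0, 1 and 2 growth genes in fl/fl and 0.09, 0.12 and 0.18 in cKO. Plasma cell genes averaged 0.47, 0.29 and 0.20 in fl/fl and 0.29, 0.25 and 0.22 in cKO. With 3 and with 4 to 6 growth genes they averaged 0.26 and 0.21 in fl/fl and 0.24 and 0.35 in cKO. Chaperones ran from 0.33 to 0.83 in fl/fl and from 0.30 to 0.87 in cKO. Genes above zero in fl/fl followed the same course, with medians of 70, 70, 69, 89 and 113. Cell cycle genes stayed between 0.11 and 0.15 in fl/fl and went from 0.08 to 0.19 in cKO.

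**Figure D3:**
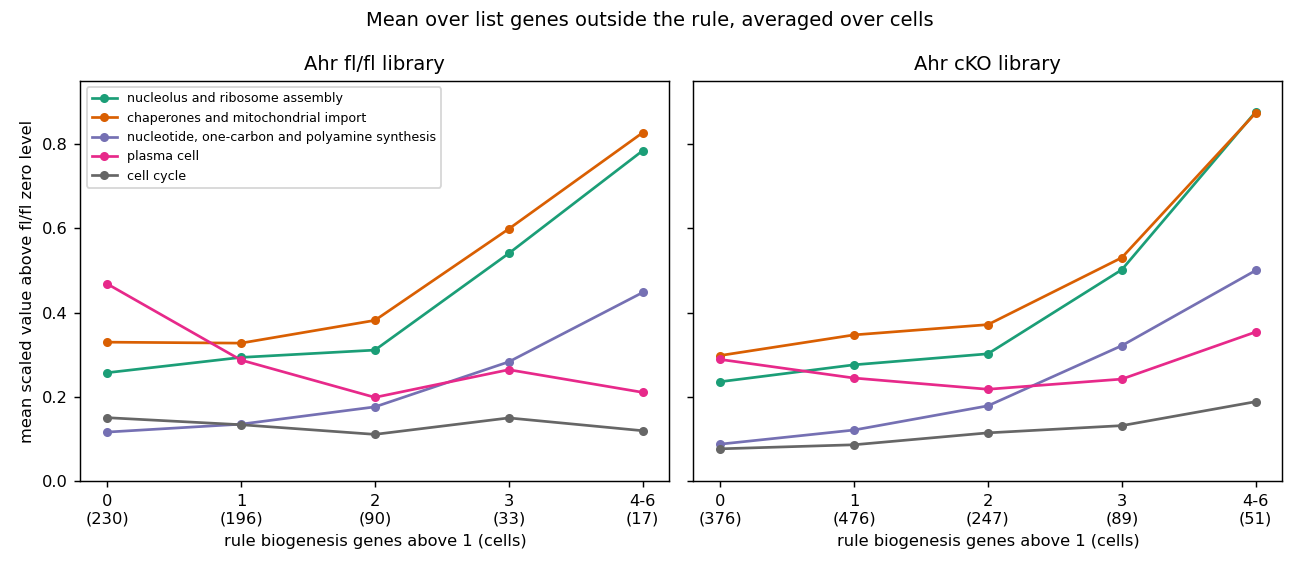
Mean value above zero over the genes of a list outside the rule (vertical axis, scaled units) by number of growth genes above 1 (horizontal axis, cells in brackets), in fl/fl (left) and cKO (right). Nucleolar genes stay near 0.3 up to 2 growth genes and reach 0.78 in fl/fl and 0.88 in cKO at 4 to 6.

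In the deposited UMAP the biogenesis-high cells were not spread evenly over the B-lineage cells. These coordinates come from the same genes and are a description. Most B-lineage cells formed an island above a UMAP-2 of 7, from which a narrow strip ran down to 3. The strip, outlined after the plot was seen, held 25 of 50 fl/fl and 80 of 140 cKO biogenesis-high cells, but 3 of 230 and 9 of 376 biogenesis-low cells. Of all cells in the strip, 34.7% in fl/fl and 42.3% in cKO were biogenesis-high. The island held 17 and 52 of them, and 8 in each library lay elsewhere.

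**Figure D4:**
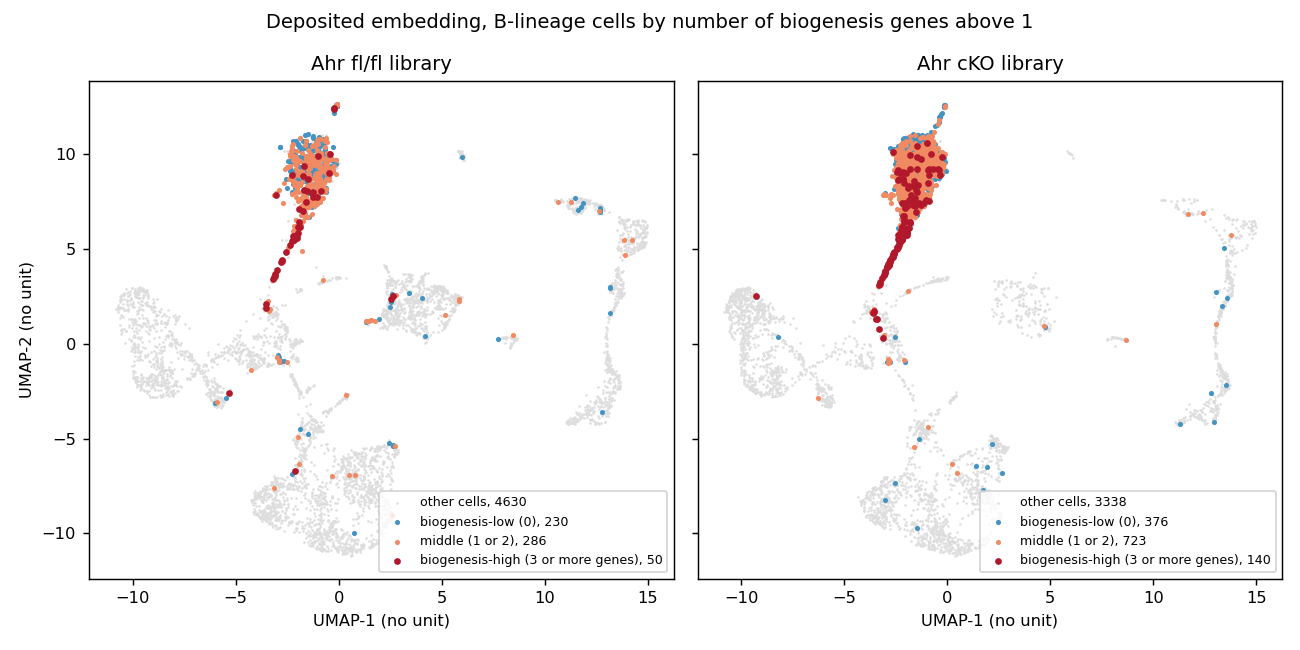
Deposited UMAP coordinates (no unit) of all cells of the fl/fl (left) and cKO (right) library, with B-lineage cells colored by the number of growth genes above 1 and other cells in grey. The strip below the B-lineage island holds 25 of 50 and 80 of 140 biogenesis-high cells.

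Biogenesis-high cells of the strip and of the island differed in genes outside the rule. In fl/fl the nucleolar mean was 0.87 (SD 0.43) in 25 strip cells and 0.33 (SD 0.20) in 17 island cells, and biogenesis-low cells of the island had 0.26 (SD 0.18). In cKO the values were 0.81 (SD 0.47) in 80 strip cells, 0.34 (SD 0.30) in 52 island cells and 0.25 (SD 0.26) in island biogenesis-low cells. Hsp90ab1 averaged 2.46 (SD 1.12) in fl/fl strip and 0.86 (SD 0.66) in fl/fl island members, the latter near the 0.88 (SD 0.65) of island biogenesis-low cells. In cKO it averaged 2.77 (SD 1.13) and 1.12 (SD 0.81). In these genes island members were thus nearer to the biogenesis-low cells of the island than to strip members. The areas were drawn after the plot was seen, on coordinates made from the same genes. Cells placed apart there differ in such genes by construction, so this is a description. The 8 cKO members elsewhere had a nucleolar mean of 0.85 (SD 0.37).

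Nucleolar genes were also high in cells of the strip that did not meet the rule, a description with the same limit. In fl/fl, 19 middle-group cells of the strip had a nucleolar mean of 0.63 (SD 0.39) and 25 cells outside the B-lineage rule 0.68 (SD 0.50). In cKO the values were 0.49 (SD 0.34) in 78 and 1.07 (SD 0.82) in 22 cells. Genes above zero had a median of 107 in fl/fl strip members and 73 in island members. The part of detection in this difference was not tested.

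Among biogenesis-high cells, Myc, Mzb1 and Cr2 also differed with position. Myc averaged 0.95 (SD 2.33) in fl/fl strip members and was at zero in all 17 island members, and averaged 0.75 (SD 1.69) and 0.21 (SD 1.42) in cKO. Mzb1 had the opposite order, with 0.51 (SD 0.77) in the strip and 2.07 (SD 1.55) in the island in fl/fl, and 0.59 (SD 0.96) and 1.20 (SD 1.28) in cKO. Cr2, itself a rule gene, averaged 2.89 (SD 3.15) and 0.65 (SD 1.60) in fl/fl, and 2.13 (SD 1.65) and 1.62 (SD 1.91) in cKO. In fl/fl middle-group cells only Mzb1 kept its order, with 0.47 in the strip and 1.37 in the island. Myc was alike there (0.29 and 0.28), and Cr2 was not higher in the strip (1.65 and 1.84). Island biogenesis-low cells of fl/fl had a Myc mean of 0.19. H2-Aa was lower in strip than in island members, at 1.01 against 1.48 in fl/fl and 1.00 against 1.38 in cKO. Middle-group cells of fl/fl had the opposite order for H2-Aa, with 1.64 in the strip and 1.44 in the island. Nxpe2 in cKO was high in every group of the strip, with 1.83 in 80 biogenesis-high, 1.25 in 78 middle and 1.04 in 9 biogenesis-low cells. The island means were 0.53, 0.54 and 0.42. The moved cKO zero level bears on these values, and its part was not tested. In fl/fl Nxpe2 averaged 0.81 (SD 2.82) in strip members and 0 in island members. The fl/fl middle group had the opposite order, with 0 in the strip and 0.38 (SD 1.80) in the island.

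Members were also split by Cr2, a choice made after these values were seen, as were the other splits. Of the fl/fl biogenesis-high cells 20 had Cr2 above 1 and 30 did not, and 9 of 17 nucleolar genes were higher and 1 lower in the first group, with a median difference of 0.27. In cKO (94 and 46 cells) 9 were higher and none lower, with a median of 0.25. Mzb1 was lower in cells with Cr2, by 1.37 in fl/fl and 0.57 in cKO. Myc averaged 0.97 against 0.15 in fl/fl and 0.75 against 0.02 in cKO. Splits by Il4i1 and Ppan gave other values. With Il4i1, 1 nucleolar gene was higher and 9 lower in fl/fl (median -0.25), and 1 was higher and 1 lower in cKO (0.12). With Ppan, 6 were higher and 3 lower in fl/fl (0.04), and 9 were higher and none lower in cKO (0.38). Il4i1 and Ppan are themselves growth genes of the rule. A cell without the split gene therefore needed more of the other growth genes above 1 to be a member. Ppan is also a gene of ribosome assembly. The part of the rule in the values of these splits was not tested. The rule asks cells without Cr2 to have Ighm, Vpreb3 or Iglc1 above 1, so those 3 genes are not compared.

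Between the genotypes the biogenesis-high cells differed in few genes, and none of the differences has a replicate check. Of 1984 genes 35 (1.76%) were at least 0.25 higher in cKO and 47 (2.37%) lower. In biogenesis-low cells the counts were 9 (0.454%) and 13 (0.655%). The means of 50 and 140 cells vary more than those of 230 and 376, so the larger counts in biogenesis-high cells are not a comparison of the groups. With the local cKO baseline removed, 28 of 1925 genes (1.45%) were higher and 28 (1.45%) lower.

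Among lists, 2 of 17 nucleolar genes were higher in cKO and 2 lower, with a median of 0.04. For chaperones 1 of 15 was higher and 2 lower, and for nucleotide synthesis 3 of 21 were higher and none lower. Over all genes 1.76% were higher and 2.37% lower. With the baseline removed, 3 of 14 nucleolar genes were higher and none lower, with a median of 0.12. Of 9 chaperones 1 was then higher and 3 lower, and of 21 nucleotide genes 3 were higher and none lower. Rrs1, a regulator of ribosome assembly, averaged 0.72 (SD 1.65) in cKO and 0.31 (SD 0.84) in fl/fl, a difference of 0.42, and also 0.42 with the baseline removed. With a limit of 0.5 the Rrs1 difference was 0.13, with at least 2 growth genes 0.05 and with medians 0.16. Hsp90ab1 was higher in cKO by 0.43, and 58% of fl/fl against 77.9% of cKO cells were above 1. Calr and Hsp90b1, chaperones of the endoplasmic reticulum, were higher by 0.35 each. Phgdh, the first enzyme of serine synthesis, was higher by 0.43, by 0.51 with the baseline removed and by 0.17 with at least 2 growth genes, although its median over cells was 0.03 lower in cKO.

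Lower in cKO were Mzb1 (-0.50), Ddx39 (-0.47), Pa2g4 (-0.43), Ipo5, a nuclear import receptor (-0.43), and Myb (-0.39). The Mzb1 difference was as large in biogenesis-low cells (-0.55), and it was 0.00098 in cells with at least 2 growth genes. The Ddx39 difference was 0.19 when medians replaced means, Ipo5 was 0.13 with at least 2 B-lineage genes, and Myb was 0.03 with a limit of 0.5 and 0.13 with a limit of 1.5. Igkc, lower by 0.32, was 0.11 higher without cells that had markers of plasma cells or other types. For Pa2g4 no setting run turned the direction, and with medians its difference was -0.01. The directions of Mzb1, Ddx39, Ipo5, Myb and Igkc thus depended on how the cells were chosen or averaged.

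**Figure D5:**
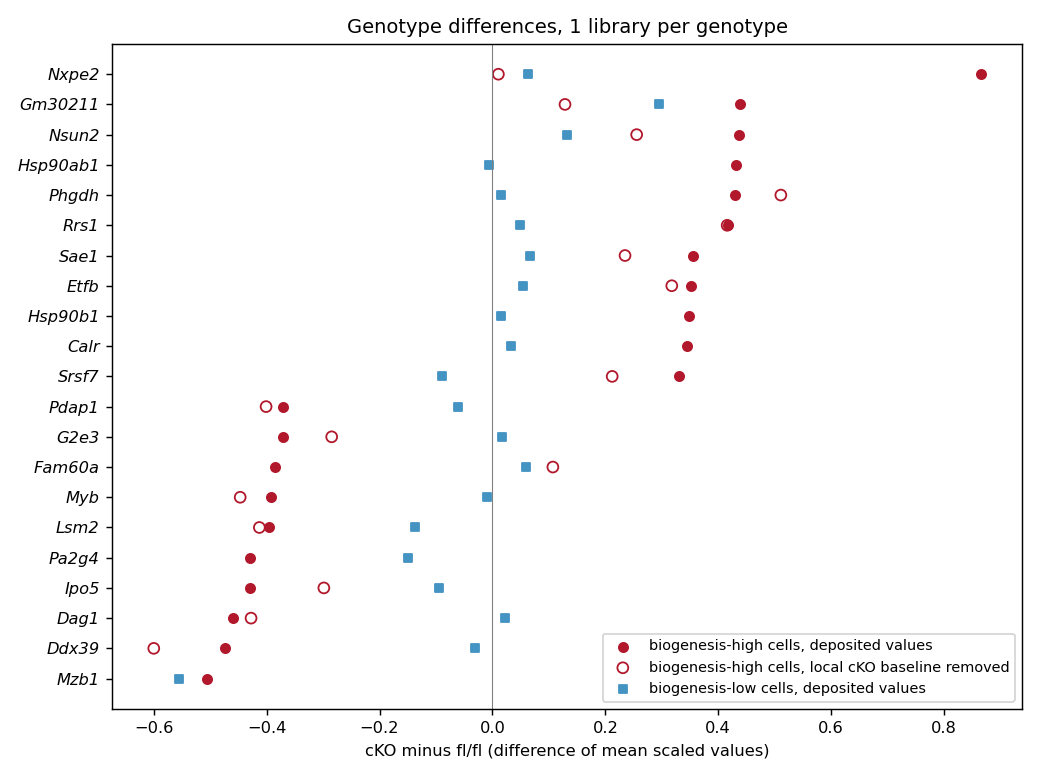
Difference of mean scaled value, cKO minus fl/fl (horizontal axis), for the 10 highest and 10 lowest genes detected in 10% or more of the fl/fl biogenesis-high cells and for Nxpe2, in biogenesis-high cells as deposited (filled circles) and with the local cKO baseline removed (open circles, where fewer than 40% of fl/fl members had the gene), and in biogenesis-low cells (squares). Nxpe2 falls from 0.87 to 0.01 when the baseline is removed, and Mzb1 is as low in biogenesis-low cells. Removing the baseline also takes away any rise shared by most nearby cKO cells.

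Ahr itself was at zero in all 50 fl/fl biogenesis-high cells, which allows a share above zero of up to 7.11% (exact 95% interval). It was above 1 in 5 of 140 cKO cells (3.57%, 1.17% to 8.14%). LysM-Cre is not directed at B cells, and the deleted part is not known here, so these values check nothing about the deletion. Lyz2, whose locus drives the Cre, was above 1 in none of the 50 and none of the 140 cells.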

How the data were processed

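Single cells of 2 10x libraries, 1 per genotype and each from 3 pooled mice, were measured by RNA sequencing. Cell Ranger 3.0.0, Seurat 3.1.4 and the build mm10 are named in the submitters' processing notes. The deposited table of 2000 genes holds scaled scores per cell that end at 10, and a second deposited table holds UMAP coordinates, also scores. The authors' steps between counts and scores, and the treatment of doublets, are not given in the sources used here, and the depth per cell is unknown. From these, the lowest fl/fl value of each gene was subtracted and cells were chosen by the stated rule. Doublets were not called. Means were compared with no test, and 0.25 was used as the limit of a difference. Intervals are exact Clopper-Pearson at 95%. Genes named were the rule genes, Nxpe2, Ahr, Lyz2, up to 4 per list by size of difference, and the 15 highest and 10 lowest against biogenesis-low cells and 10 highest and 10 lowest between genotypes, among those detected in 10% or more of the cells. Those described by UMAP region or split were chosen after their values were seen. The members and lists were chosen with earlier results of these data known. The UMAP limits, the 5-gene cycling count, the splits of members and the removal of shared barcodes were chosen after seeing the data. Other limits, gene numbers and averages were tried. Scripts ran in Python 3.11.15 with numpy 2.4.6, pandas 2.3.3, scipy 1.17.1 and scikit-learn 1.9.0. The steps for differences and for the local baseline were tried on fl/fl cells to which known differences and shifts had been added.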

Additional observations from a re-analysis of the deposited data

How the results depend on the processing

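No paired analysis was possible because each genotype has 1 library. The share of biogenesis-high cells was above the fl/fl share in cKO under every setting run. Every such setting measured heights from the same fl/fl zero level. None of them removed the shift of the cKO values, so they cannot show whether that shift raised the cKO share. In fl/fl and cKO it was 2.46% and 6.66% with a limit of 0.5, 0.5004% and 1.11% with 1.5, 2.69% and 8.46% with at least 2 growth genes, 0.327% and 1.11% with at least 4, and 0.385% and 1.94% with at least 2 B-lineage genes. Without Il4i1 the cKO share was 2.36%.

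Between biogenesis-high and biogenesis-low fl/fl cells, 47 genes were higher with a limit of 0.5, 161 with 1.5 and 23 with at least 2 growth genes. Genes lower were 8 against all cells with 0 to 2 growth genes, 39 with equal weight over bins of genes above zero and 3 by the share of cells above 1. The direction turned for Iglc3 (0.060, limit 0.5), Lmo2 (0.034, at least 2 growth genes) and Nid1 (-0.044, at least 4). With at least 2 B-lineage genes it turned for Cd24a (-0.059), Cd83 (-0.081), Cdc25b (0.023), Egr3 (-0.163), Fam214a (0.020) and Iglv1 (0.019). It also turned without cells of other types for Iglv1 (0.084) and Slpi (0.0016), and in cKO for Cdc25b (0.075) and Iglv1 (0.0069).

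Between genotypes, genes higher in cKO numbered 15 (limit 0.5), 79 (limit 1.5), 12 (at least 2 growth genes), 96 (at least 4), 64 (at least 2 B-lineage genes) and 53 (without Il4i1). Genes lower numbered 7 (limit 0.5), 108 (limit 1.5), 9 (at least 2 growth genes), 100 (at least 2 B-lineage genes), 28 (baseline removed) and 12 (medians). Directions turned for Myb (0.030) and Tomm40 (0.151) with 0.5, Myb (0.133) with 1.5, and Fkbp11 (-0.010), Mzb1 (0.00098) and Srsf7 (-0.072) with at least 2 growth genes. They turned for Igkc (0.068) and Mthfd1 (-0.089) with at least 4, G2e3 (0.081) and Ipo5 (0.128) with at least 2 B-lineage genes, and Igkc (0.113) without cells of other types. With the baseline removed Cdca7 (0.078), Fam60a (0.107) and Mthfd1 (-0.118) turned. With medians Dag1 (0.039), Ddx39 (0.190), Igkc (0.050), Lsm2 (0.060), Mettl1 (-0.014), Pdap1 (0.147), Phgdh (-0.028) and Tomm40 (0.067) turned. The cause was not tested. The unknown depth limits all values, and 50 fl/fl cells limit their precision.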
